A study of Mus musculus with 2 samples.

Results

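Among the peaks of 5-hydroxymethylcytosine (5hmC) listed for mouse kidney, most are under 2 kb long and a small class is far wider. The regions described here are the 561 peaks of 5 kb or more on chromosomes 1 to 19, out of 92654 peaks in the authors' list. They were chosen by width alone (end minus start in the peak list), so width is a selection and not a finding. The other 91758 autosomal peaks, all under 5 kb, serve as comparison and are called short peaks. Broad peaks made up 0.608% of the 92319 autosomal peaks, and 4 further peaks of 5 kb or more, all on chromosome X, were outside the rule.

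The tissue is kidney of male C57BL/6 mice, an inbred laboratory strain, aged 6 weeks. The DNA was sequenced in a pair of libraries. The first is an hMeDIP library (hydroxymethylated DNA immunoprecipitation with an Active Motif antibody against 5hmC, followed by sequencing), with 11424027 fragments. The other is an input library made without antibody from the same kind of tissue, with 8316507 fragments. Each group is 1 library, from an unstated number of animals, so no difference below has a replicate check and none was tested. All intervals are 95% intervals for counting error only, since variation between libraries cannot be seen with 1 library per group. Reads here carry no molecular identifier and can be copies of 1 molecule. Each listed position was counted once, whatever its number of reads. Whole kidney holds many cell types, and more cells carrying the mark cannot be told apart from more mark per cell.

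TET enzymes make 5hmC by oxidising 5-methylcytosine, the usual methylated base of CpG sites. In differentiated tissues the mark is known to lie over the bodies of active genes and over enhancers, and to be depleted at methylation-free CpG islands and in inactive, gene-poor chromatin. The antibody recovers a fragment more readily when it carries several marked bases, so the signal is a relative enrichment and not a level per base. Peaks were delimited by MACS, a caller that places edges from the pile-up of reads. No gene annotation or genome sequence of the build of the files, mm9, was used here, so regions are given by position.

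Averaged over whole peaks, edges included, broad peaks carried more hMeDIP fragments per kilobase than short peaks, on nearly the same input. Pooled over all members, the density was 34.0 hMeDIP fragments per kb in broad peaks, against 25.6 in short peaks and 4.55 over the autosomes. Input density was 3.92 per kb in broad peaks, 3.55 in short peaks and 3.27 over the autosomes. The ratio used below is the share of all hMeDIP fragments in a region over the share of all input fragments there, with an exact conditional binomial interval. It was 6.30 (6.19 to 6.41) in broad peaks and 5.24 (5.22 to 5.26) in short peaks, a quotient of 1.20 (1.18 to 1.22). Because peaks were called on the hMeDIP signal, these ratios describe the members and are no independent evidence of 5hmC.

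In all, 561 broad peaks spanned 3.62 Mb, or 2.90% of the length of autosomal peaks, and held 123109 hMeDIP and 14218 input fragments. This was 1.08% (1.07 to 1.08) of hMeDIP and 0.171% (0.168 to 0.174) of input fragments. Their median width was 5943 bp with quartiles of 5383 and 6916 bp, 136 reached 7 kb and 27 reached 10 kb. The median broad peak held 202 hMeDIP and 23 input fragments, against 27 and 4 in the median short peak. The greater depth makes the ratio of a single broad peak far less noisy than that of a short one. A ratio interval above 1 was found in 561 of 561 broad peaks, against a background of 97.8% of all autosomal peaks, which the choice by hMeDIP signal sets. Above the pooled ratio of short peaks lay the intervals of 124 broad peaks, 11 lay below it and 426 spanned it. The background for the upper call was 1.21% of all autosomal peaks, which hold fewer fragments and so have wider intervals.

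hMeDIP density was higher in each wider class. Among short peaks it was lowest under 1 kb of width, with 24.1 fragments per kb, and highest from 4 kb on, with 31.6. Broad peaks continued this order with 33.0 below 7 kb, 35.4 below 10 kb and 37.2 above. Input density stayed between 3.81 and 3.91 per kb from 2 to 10 kb, and was 4.39 in the widest class. The ratio was 6.16 (6.03 to 6.30) in 425 peaks of 5 to 7 kb, 6.76 (6.52 to 7.01) in 109 peaks of 7 to 10 kb and 6.18 (5.85 to 6.54) in 27 peaks of 10 kb or more. Of these 27, 1 lies in a stretch of chromosome 1 with high input described below, and the other 26 gave 7.09 (6.67 to 7.54). Peaks under 1 kb break the order of the ratio, at 5.83 (5.79 to 5.87), against 4.99 (4.97 to 5.01) at 1 to 2 kb. Their input was also the lowest of the 8 classes, at 3.01 per kb.

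**Figure D1:**
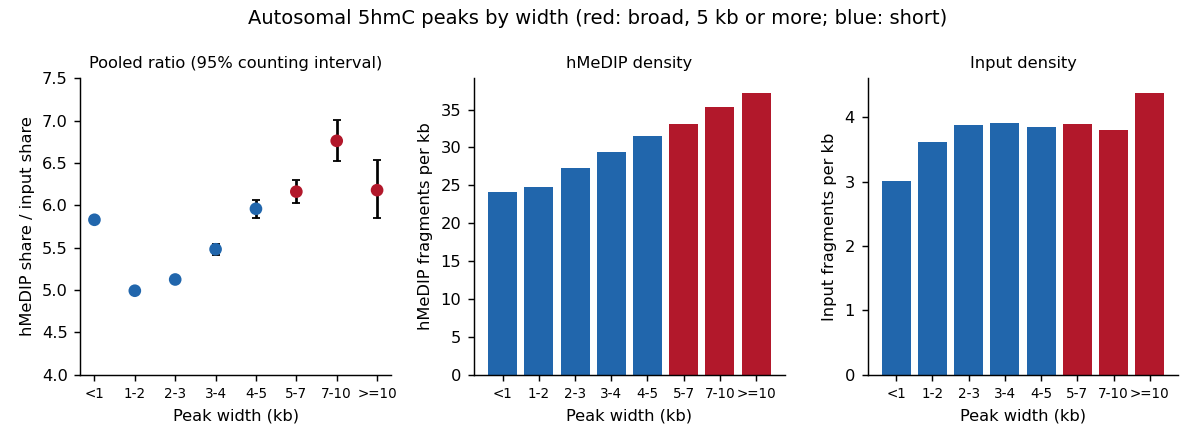
All autosomal peaks grouped by width (x axis, kb). Left, pooled hMeDIP share over input share with 95% counting intervals; middle and right, hMeDIP and input fragments per kb. hMeDIP density climbs from 24.1 to 37.2 per kb with width, while input differs little from 2 to 10 kb.

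Members just inside and peaks just outside the threshold had overlapping intervals. Inside it, the peak at chromosome 4, 139139175 to 139144175 (5001 bp) had a ratio of 7.87 (4.71 to 14.1), that at chromosome 4, 137567170 to 137572172 (5003 bp) 4.92 (3.10 to 8.20) and that at chromosome 8, 126786205 to 126791211 (5007 bp) 6.39 (4.14 to 10.3). Outside it, the widest short peak, chromosome 1, 170196971 to 170201969 (4999 bp), had a ratio of 6.65 (3.89 to 12.2). The next, chromosome 11, 79484927 to 79489919 (4993 bp), stood at 5.27 (3.16 to 9.33), and chromosome 5, 143557154 to 143562145 (4992 bp), at 8.05 (5.03 to 13.6).

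Single broad peaks ranged from 20.1 to 57.5 hMeDIP fragments per kb. On the log2 scale the SD of hMeDIP density over the 561 peaks was 0.25, against 0.10 expected from counting. Input density had an SD of 0.39, of which counting would give 0.31. Ratios ran from 4.11 at the 5th to 10.9 at the 95th percentile, with an SD of 0.46 on the log2 scale against 0.32 from counting. A large part of the order of ratios therefore lies within counting error. Across the 561 peaks, all from the same pair of libraries, the ratio followed input density (Spearman's rho -0.79), which stands in its denominator. The rank correlation of hMeDIP density was -0.0014 with input density and 0.21 with width.

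The densest broad peak, chromosome 13, 112572353 to 112578469, held 57.5 hMeDIP and 5.23 input fragments per kb and had a ratio of 8.01 (5.57 to 11.9). It was chosen after the values were seen. Among the 556 members with at least 10 input fragments the ratio was highest at chromosome 11, 120117403 to 120122952, with 279 hMeDIP and 12 input fragments (16.9, 9.54 to 33.2). Then followed chromosome 12, 109469043 to 109475826, with 250 and 12 fragments (15.2, 8.53 to 29.7), and chromosome 18, 75603051 to 75608695, with 223 and 11 fragments (14.8, 8.09 to 29.99). The fourth place was taken by chromosome 6, 125306794 to 125314990, with a ratio of 14.7 (9.04 to 25.5). Behind it came chromosome 9, 119332435 to 119338051, which reached 14.3 (7.83 to 29.1). Over the 10 highest, hMeDIP density ran from 30.4 to 50.3 per kb and input density from 1.65 to 2.76, so that all 10 lay below the autosomal mean of input.

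Of those 10, 3 lie together on chromosome 12. With gaps of up to 1000 bp bridged, 15 peaks there form a stretch of 56431 bp, from 109455807 to 109512237, whose ratio was 9.78 (8.27 to 11.7) from 1962 hMeDIP and 146 input fragments. The 4 broad peaks inside had ratios of 13.5 (7.16 to 28.6) at 109460590 to 109466659, 15.2 at 109469043 to 109475826, 8.49 (5.24 to 14.6) at 109477845 to 109482881 and 12.7 (7.81 to 22.1) at 109486885 to 109494722. Over the whole stretch, short peaks and gaps included, hMeDIP density was 34.8 per kb, beside 34.0 inside broad peaks alone over the autosomes. Input density over the stretch was 2.59 per kb, below the autosomal mean.

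At the other end, 6 members lie in 2 long runs of high input. Such a run was taken as 5 or more 10 kb bins in a row with over 1.5 times the median input of 35 fragments, a rule set after the values were seen. On chromosome 1, 90100001 to 90210000, hMeDIP density was 23.7 and input density 21.5 per kb, and the 50 kb on either side had 4.42 hMeDIP and 3.19 input fragments per kb. Its 2 broad peaks, 90148671 to 90160276 and 90160281 to 90166203, are parted by 4 bp and had the lowest ratios of all members. These were 1.89 (1.63 to 2.20) with 638 hMeDIP and 246 input fragments, and 1.35 (1.09 to 1.67) with 259 and 140. The whole run stood below the genome mean, at 0.804 (0.761 to 0.851), and its broad peaks held 51.2 hMeDIP and 22.0 input fragments per kb. On chromosome 14, 69870001 to 70090000, each 10 kb bin held 64 to 94 input fragments, 2.44 times the autosomal mean density in all, against 3.46 per kb on either side. Its 4 broad peaks had 38.1 hMeDIP and 8.03 input fragments per kb and ratios of 2.81 to 4.91.

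These runs account for 5 of the 10 members with the lowest ratios, among them the chromosome 14 peak at 70081277 to 70086915 with 237 hMeDIP and 55 input fragments (3.14, 2.33 to 4.29). Outside the runs, the lowest ratio was 2.40 (1.62 to 3.63) on chromosome 6, 72677410 to 72682750. Chromosome 18, 61247228 to 61252928, followed with 2.64 (1.83 to 3.89). All 10 had an input of 5.46 per kb or more. The part of input in these low ratios was not tested further. Without the chromosome 1 pair the pooled ratio of broad peaks was 6.43 (6.32 to 6.55). Without both runs it was 6.47 (6.36 to 6.59).

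**Figure D2:**
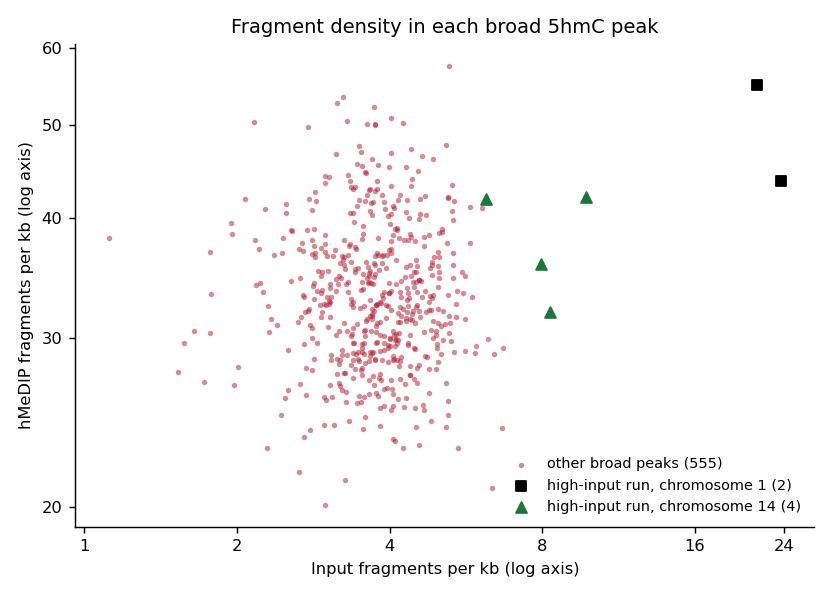
Each point is 1 of the 561 broad peaks, by its input (x) and hMeDIP (y) fragments per kb, both on log axes. Black squares are the 2 peaks of the high-input run on chromosome 1 and green triangles the 4 of the run on chromosome 14; both groups lie to the right of nearly all other members at ordinary hMeDIP density or above.

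Inside, broad peaks were flat. When each was divided into 20 equal parts, the parts between 10% and 90% of the width held 34.5 to 38.5 hMeDIP fragments per kb, and the outermost parts 20.1 and 19.6. Input was 3.58 to 4.17 per kb in all 20 parts. The ratio was 6.62 (6.37 to 6.88) in the middle 20% of the width and 5.92 (5.76 to 6.09) in the outermost 20% on both sides, a quotient of 1.12 (1.07 to 1.17). All short peaks pooled were domed, with 6.77 (6.72 to 6.81) in the middle and 3.78 (3.76 to 3.80) on the sides, a quotient of 1.79 (1.77 to 1.80). Short peaks of 2 to 5 kb, 11842 in number and the nearest in width, had a ratio of 5.59 (5.51 to 5.66) in the middle, below both broad peaks and all short peaks. Their sides stood at 4.33 (4.29 to 4.37), and their quotient of 1.29 (1.27 to 1.31) lay between the other two. They had shoulders, with 34.5 hMeDIP fragments per kb in the part centred on 27.5% of the width and 34.6 in that on 72.5%, and 29.4 in that on 52.5%. Position here is a share of the width, and the first 750 bp from an edge make up more of a narrow peak. Over those 750 bp broad and short peaks rise alike, as given below. The part of this in the difference in shape was not tested.

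**Figure D3:**
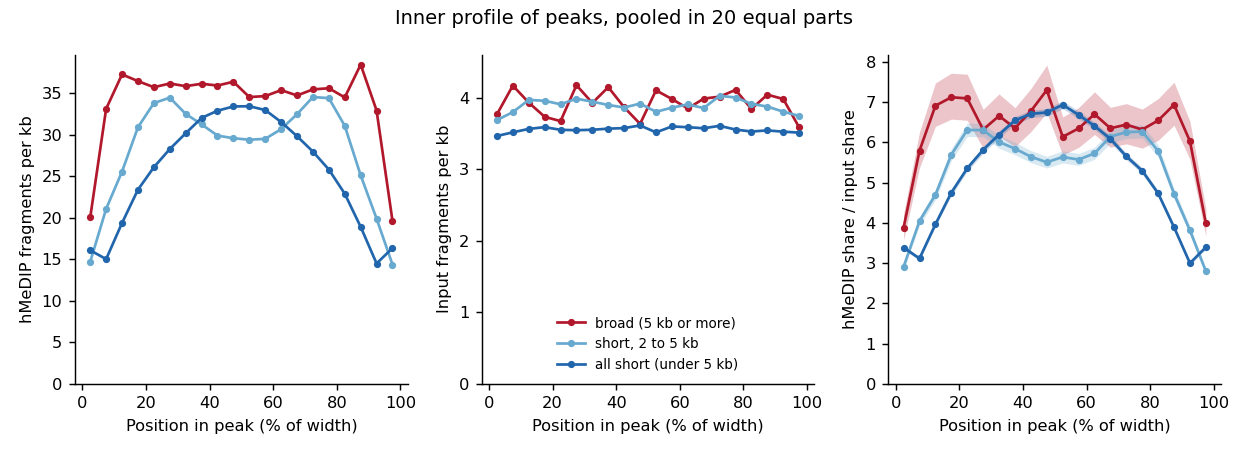
Position within the peak in percent of its width (x) against pooled hMeDIP density, input density and ratio (y; shading, 95% counting interval), for broad peaks, short peaks of 2 to 5 kb and all short peaks. Broad peaks form a plateau of 34.5 to 38.5 hMeDIP fragments per kb between steep sides, whereas all short peaks form a dome and input is level throughout.

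The plateau is an average, and single broad peaks were uneven along their length. In whole windows of 500 bp, 6989 in all, hMeDIP counts ran from 1 to 67 with a median of 15, where the autosomal mean is 2.28. The 5th and 95th percentiles were 7 and 34 fragments. Within a peak the coefficient of variation over windows had a median of 0.447 (quartiles 0.384 and 0.512), while counting alone would give 0.244, and it was above the counting value in 552 of 561 peaks. In the input the median was 0.734 against 0.725 from counting, so the input was as even as its depth can show. The median variance of hMeDIP windows was 3.39 times their mean, and that of input windows equalled their mean. These windows include the ends of each peak, where hMeDIP density is lower, and the part of the ends in the unevenness was not tested. Windows at or below the autosomal mean, with at most 2 fragments, numbered 13 (0.186%, 0.0991 to 0.318), and 548 of 561 broad peaks held none. Short peaks had such windows as seldom, in 0.176% (0.158 to 0.196) of 196063. Above 4 times the autosomal mean stood 84.4% (83.5 to 85.2) of windows in broad peaks and 78.6% (78.4 to 78.8) in short peaks, and in 74 broad peaks every window did. Peaks were called on this signal, so few low windows are part of the selection.

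The most uneven member was chromosome 10, 79519341 to 79524412, with windows of 5 to 66 fragments around a mean of 19.5 and 68.5% (61.5 to 74.9) of its fragments in the left part up to the middle. The most even was chromosome 11, 117635490 to 117640785, with windows of 11 to 21 around a mean of 15.6 and a coefficient of variation of 0.177, below the 0.253 that counting gives on average. Both are the extremes of a ranking. In the widest peak, chromosome 15, 85903967 to 85922270 (18304 bp), 36 windows held 4 to 40 fragments and the left part 50.1% of them. In the next widest, chromosome 3, 121138044 to 121153332, the left part held 59.9% (55.7 to 64.0).

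Fragments were spread unequally between the left and the right part in more members than counting gives. The interval of the left share excluded 50% in 166 of 561 peaks (29.6%) for hMeDIP and in 30 (5.35%) for input. With these exact intervals, 5% is the most that counting alone would give on average. The median peak held 202 hMeDIP but only 23 input fragments, so the same tilt would be seen less often in the input. Of the 166, 88 were heavier on the left and 78 on the right, so neither direction along the chromosome prevailed. With each member cut into 5 equal parts from left to right, the part with the most hMeDIP fragments was number 1 in 82 members, 2 in 146, 3 in 136, 4 in 126 and 5 in 71. Parts 1 and 5 include the edges that the caller set, where density is lower, so fewer maxima there are part of the selection.

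Edges, which the caller sets, were steep and much alike in broad and short peaks. Going inwards in steps of 250 bp, hMeDIP density in broad peaks was 17.4, 28.0 and 39.7 per kb in the first 3 steps and 34.6 to 36.2 in all later steps up to 2500 bp. Short peaks had 17.9, 26.6 and 36.9 in the same 3 steps. Further in, only the wider short peaks contribute. Those of 2 to 5 kb, all of which reach that far, held 30.9 per kb at 750 to 1000 bp, against 35.9 in broad peaks. The last 250 bp before the edge held 5.52 hMeDIP fragments per kb in front of broad peaks and 4.49 in front of short ones, less than the 9.38 and 7.29 found another 250 bp out. Short peaks of 2 to 5 kb held 5.68 and 8.82 in the same 250 bp steps, also above short peaks as a whole. In the 11 broad peaks with no other peak within 6 kb on either side, the last 250 bp stood at 1.92 (1.11 to 3.44), on 50 hMeDIP and 19 input fragments only, against 0.761 (0.750 to 0.773) at 20069 such short peaks. By strand, reads pointing into a broad peak started at 0.882 per kb in the last 100 bp outside and at 12.9 per kb in the first 100 bp inside, so that edges lie at read starts. Reads pointing out of the peak had no such jump, with 3.92 and 1.86 per kb in the same steps, and reached 11.5 per kb at 200 to 300 bp inside.

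**Figure D4:**
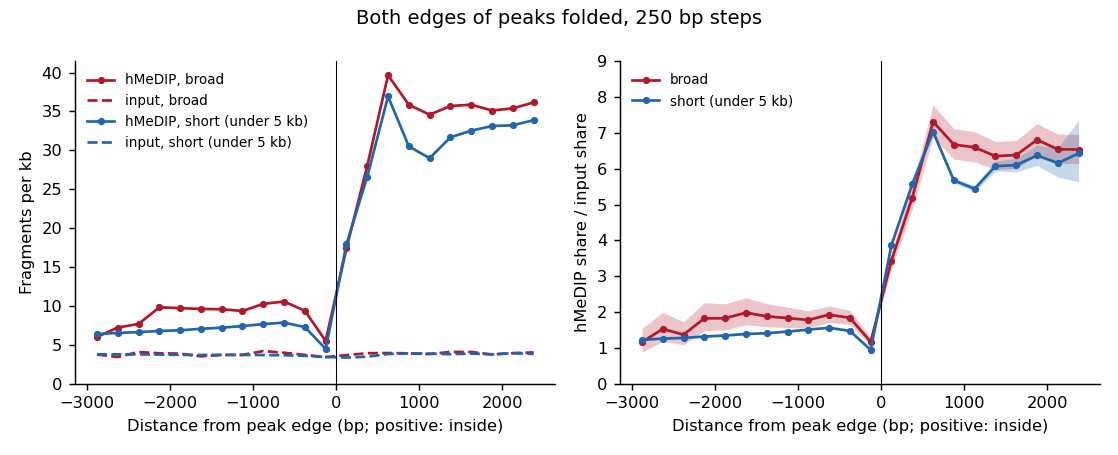
Distance from the peak edge (x, bp, positive inside, both edges folded, sequence up to the middle of the gap to the next peak) against fragments per kb (left) and ratio with its 95% counting interval (right). Broad and short peaks rise alike over 750 bp, and the outside of broad peaks lies higher than that of all short peaks pooled up to 2000 bp away.

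Broad peaks seldom stood free. The nearest gap to another peak had a median of 240 bp, against 1454 bp for short peaks. It was at most 1000 bp for 82.7% (79.3 to 85.7) of broad and 42.1% (41.8 to 42.4) of short peaks. Only 3 broad peaks (0.535%) had no other peak within 10 kb on either side, against 14.5% of short peaks. These were chromosome 5, 121068706 to 121075147, chromosome 15, 25516238 to 25521384, and chromosome 18, 78015517 to 78021173, named for being so few after the values were seen, and their ratios ran from 4.33 (2.75 to 7.15) to 7.21 (4.54 to 12.1). A wide peak leaves less room beside it, and the share of close neighbours was not adjusted for that.

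The gaps themselves were low in hMeDIP where they were short. Gaps of up to 250 bp had a ratio of 0.280 (0.200 to 0.389) beside broad peaks and 0.331 (0.312 to 0.351) between short peaks. At 500 to 1000 bp the ratios were 1.70 (1.51 to 1.92) and 1.35 (1.33 to 1.38). Gaps are where the caller placed no peak, so a low ratio in them is part of the selection.

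How many broad stretches there are depends on such gaps. When peaks up to 100 bp apart were joined, 1008 stretches reached 5 kb, of which 456 held no broad peak. Joined over 1000 bp, there were 4325, of which 3815 were made of short peaks alone and 119 reached 20 kb. The ratio of those 3815 was 4.98 (4.95 to 5.01), gaps included, against 5.91 (5.83 to 5.98) in the 510 that contain a broad peak. The widest joined stretch, chromosome 15, 58800165 to 58904336, ran for 104172 bp over 25 peaks, 7 of them broad, at a ratio of 6.41 (5.78 to 7.11).

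Sequence outside all peaks was also enriched around broad peaks. By distance to the nearest edge, where the nearest peak is broad, the band of 500 to 1000 bp had a ratio of 1.86 (1.71 to 2.03) and that of 1000 to 2000 bp 1.88 (1.72 to 2.05). In the band of 2000 to 5000 bp it was 1.46 (1.35 to 1.58), and in that of 5000 to 10000 bp 1.15 (1.03 to 1.29). Where the nearest peak is short these bands stood at 1.54 (1.53 to 1.55), 1.403 (1.398 to 1.409), 1.209 (1.206 to 1.213) and 1.035 (1.032 to 1.038). At 2000 to 5000 bp the broad flanks were therefore 1.21 times (1.11 to 1.31) as high as the short ones. Against short peaks in the same 100 kb bins the outcome differed by band. At 500 to 1000 bp the same-bin short flanks stood at 1.89 (1.85 to 1.93), near the 1.86 of broad flanks. At 1000 to 2000 bp the same-bin short flanks stood at 1.697 (1.665 to 1.730), below the 1.88 of broad flanks. At 2000 to 5000 bp they stood at 1.49 (1.47 to 1.52), a quotient of 0.977 (0.901 to 1.06), and at 5000 to 10000 bp at 1.28 (1.25 to 1.31), a quotient of 0.901 (0.804 to 1.01). With the threshold set at 7 kb, the flanks of broad peaks stood at 0.843 times (0.680 to 1.05) those of short ones. Inside the peaks, a difference from short peaks of the same bins remained. Broad peaks were there 1.11 times (1.09 to 1.13) as high as the 8136 short peaks of those bins, whose ratio was 5.67 (5.62 to 5.73).

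The 100 kb bins that hold broad peaks were enriched in hMeDIP fragments between the peaks too. Of 419 such bins with at least 50 input fragments outside peaks, 301 (71.8%, 67.3 to 76.1) were high outside peaks. High means a log2 ratio above 0.5 with its interval above 0. The background was 9.14% of all 23399 bins with that much input. Among the 3156 bins with 10 or more peaks but no broad one, 49.8% (48.1 to 51.6) were high. The median log2 ratio outside peaks was 0.64 in bins with a broad peak, -0.51 over all bins and 0.50 in those 3156 bins. With peak number held alike the direction varied. In bins with 3 to 5 peaks the median was 0.25 with a broad peak, on 8 bins only, and -0.01 without. With 6 to 10 peaks it was 0.25 with and 0.26 without, and with 11 to 15 peaks 0.43 with and 0.44 without. Bins with 16 to 20 peaks had 0.58 with and 0.56 without a broad peak, and those with 21 or more 0.72 with and 0.67 without. Broad peaks were more frequent in dense bins. They were 1.60% of peaks in bins with 21 or more, 0.756% at 16 to 20, 0.472% at 11 to 15 and 0.119% at 6 to 10, and none lay in the 4312 bins with 1 or 2 peaks, which allows up to 0.0855% of such bins (exact binomial).

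Along the genome, broad peaks were unequally shared out. Chromosome 8 carried the most, 65, or 1.20% (0.926 to 1.53) of its peaks, and chromosome 15 had 44, or 1.02% (0.741 to 1.37). Both intervals lay above the autosomal 0.608%. Below it lay chromosome 16 with 7 (0.225%, 0.0906 to 0.463) and chromosome 3 with 11 (0.252%, 0.126 to 0.450). Chromosome 11, with 47, and chromosome 5, with 45, came next to chromosome 8 in number, but their shares of 0.701% and 0.669% did not stand apart from the autosomal value. All these intervals treat peaks as independent, which clustered peaks are not, so they are too narrow. Another broad peak lay within 100 kb of 44 of the 65 on chromosome 8 and 29 of the 44 on chromosome 15. Per Mb of span, chromosome 8 had 0.493 and chromosome 3 had 0.0689, with a median of 0.232. The pooled ratio of a chromosome's broad peaks was lowest on chromosome 1, at 4.48 (4.20 to 4.78), where the 26 members other than the high-input pair gave 6.00 (5.55 to 6.49). On chromosome 14 it was 5.43 (5.05 to 5.84), and 5.95 (5.49 to 6.46) for the 25 outside the high-input run. The other 17 chromosomes lay between 5.69 and 7.19.

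Broad peaks leaned towards the ends of chromosomes far from the centromere, which in the mouse sits at the start of the coordinates. The last 20% of each chromosome, by position, held 254 of 561 broad peaks (45.3%, 41.1 to 49.5) and 32.4% (32.1 to 32.7) of short peaks. The first 20% held 44 (7.84%, 5.76 to 10.4) and 12.1% (11.9 to 12.3). Broad peaks were thus further skewed in the direction that short peaks already have. The intervals again take clustered peaks as independent.

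They were also clustered. Another broad peak lay within 100 kb, midpoint to midpoint, of 319 members (56.9%, 52.6 to 61.0), whereas 14.3% (14.1 to 14.5) of short peaks had a broad peak that close. The share depends on the threshold, and among the 136 peaks of 7 kb or more 27.9% (20.6 to 36.3) had another such peak within 100 kb. For peaks of 5 kb or more, the shares within 20 kb were 30.5% (26.7 to 34.5) and 4.55% (4.42 to 4.69). The nearest other broad peak was at a median of 61.1 kb, with quartiles of 16.5 and 752 kb. Broad peaks lie where peaks of any width are dense, with a median of 22 other peaks within 50 kb against 12 for short peaks. Among peaks with 18 to 26 neighbours, the middle range of broad peaks, the shares with a broad peak within 100 kb were 59.0% (53.1 to 64.7) of 290 broad and 29.9% (29.3 to 30.5) of 20179 short peaks. Members linked by steps of at most 100 kb formed 356 groups, of which 242 were single peaks, 64 pairs and 50 groups of 3 to 7 that together held 191 members. In 29 cases 2 broad peaks followed each other with no short peak between, across gaps of 4 to 5719 bp with a median of 518 bp.

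Peaks covered 77.7% to 93.0% of the 5 tightest groups. On chromosome 15, 58805848 to 58903392, 7 broad and 15 short peaks covered 93.0% of 97.5 kb, and the ratio of the whole was 6.53 (5.88 to 7.27) from 3463 hMeDIP and 386 input fragments. Its broad peaks ran from 5577 to 13404 bp and from 5.27 (3.56 to 8.07) to 9.01 (6.17 to 13.7) in ratio, and the sequence left between peaks held 25 hMeDIP and 16 input fragments. On chromosome 8, 126776290 to 126836948, 6 broad peaks lay within 60.7 kb, the shortest span of the 5 groups, at a ratio of 5.47 (4.77 to 6.30) for the whole and 1.85 (1.27 to 2.72) between peaks. Chromosome 6, 120964007 to 121055388, had 6 broad peaks with ratios of 3.92 to 9.16, and the whole stood at 5.54 (4.96 to 6.19). Chromosome 14, 120687442 to 120779326, also had 6, the most alike of the 5 groups in ratio, from 5.85 to 7.34, and stood at 5.33 (4.79 to 5.95). The other group on chromosome 8, 119801607 to 119902001, had 6 broad among 25 peaks and the highest ratio of the 5, 7.93 (7.10 to 8.87). Linked on to 119944736 it held 7 broad peaks at a pooled ratio of 8.05 (6.97 to 9.35).

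**Figure D5:**
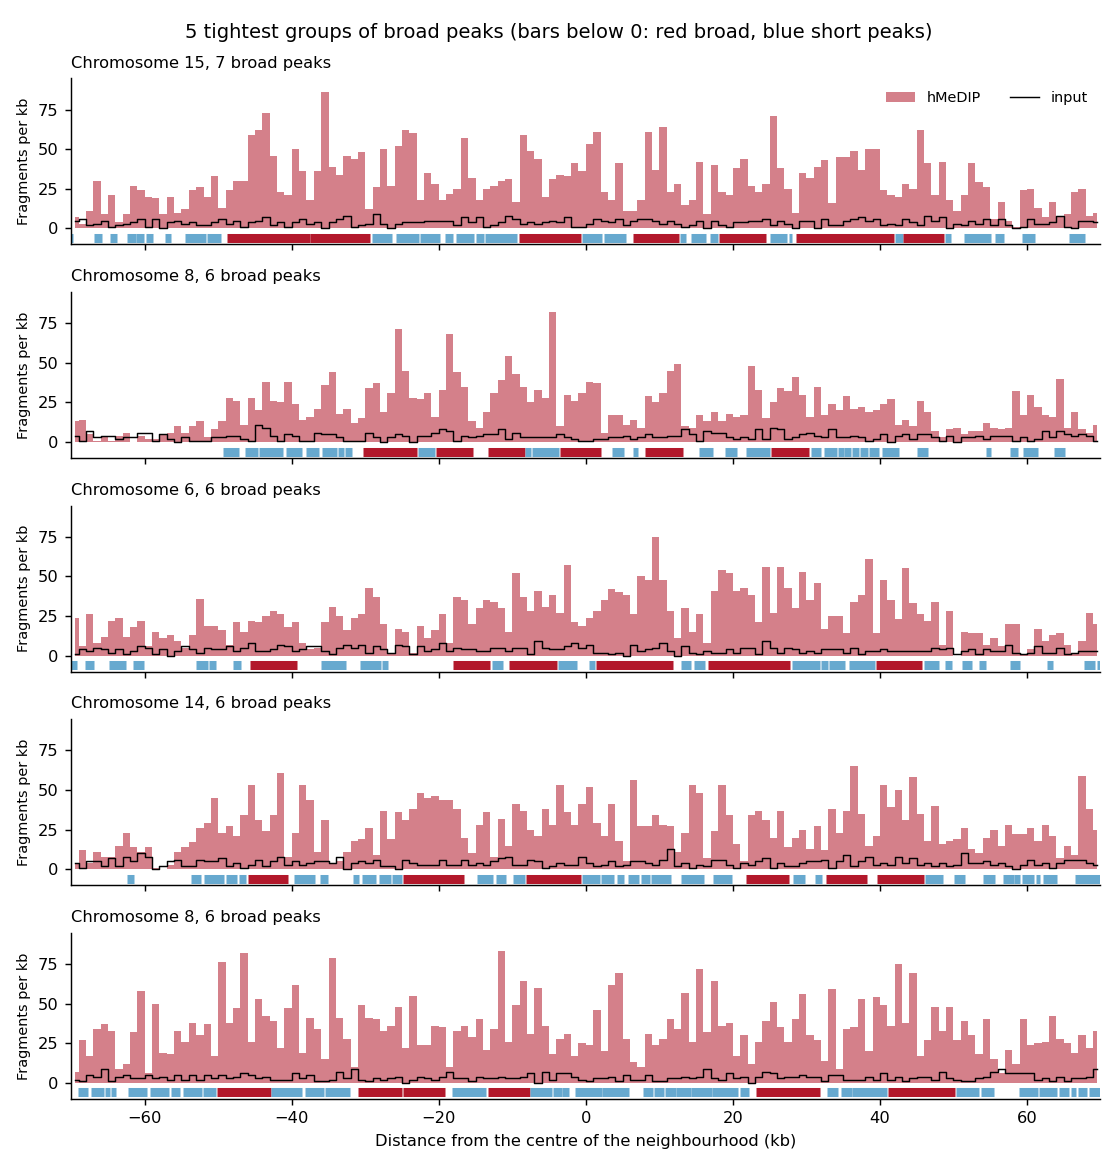
hMeDIP (filled) and input (line) fragments per kb (y) against distance from the centre (x, kb) in the 5 tightest groups of broad peaks; bars below 0 mark broad (red) and short (blue) peaks. hMeDIP rises and falls within and between the bars, over a low and level input.

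In broad peaks, hMeDIP pairs with a forward read start upstream of a reverse one were most frequent at 100 to 150 bp, with 77976 pairs there, 54818 at 300 to 350 bp and 49035 at 600 to 650 bp. Short peaks had their maximum at the same distance, with 1422202 pairs at 100 to 150 bp and 665429 at 600 to 650 bp. Input pairs in broad peaks numbered 811, 757 and 763 at the 3 distances. The deposited stretches of 350 bp are longer than the commonest distance, and midpoints of 150 bp stretches were tried as an alternative.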

How the data were processed

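Reads were handled with CASAVA and Bowtie 1.0.0 on build mm9, per the submitters' processing notes. The deposited position files hold, per line, a stretch of 350 bp with its strand and the count of reads there. Peaks carry a score of 50 to 2936.71 and were called with MACS, per the file headers. Not given in the sources used here: how alignment was set, and the version, control and threshold of the caller.

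Each line was counted as 1 fragment at its midpoint, for 11424027 hMeDIP and 8316507 input fragments. Ratios of shares have exact conditional binomial intervals, shares have Clopper-Pearson intervals, and quotients of ratios have log-normal counting intervals. Python 3.11.15 with numpy 2.4.6, pandas 2.3.3, scipy 1.17.1 and matplotlib 3.10.9 was used, and the functions were tested on simulated data. With 1 library per group no p-value was computed.

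Named regions were the 10 widest peaks, the 10 highest and 10 lowest ratios on at least 10 input fragments, the 5 tightest groups within 100 kb, 3 peaks on either side of the threshold and the 5 most and 5 least even peaks, of which examples are given. The members and lists were chosen with earlier results of these data known. Gene annotation and genome sequence of mm9 were not used here.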

Additional observations from a re-analysis of the deposited data

Results flagged for a closer look

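The position files give a number per position, read here as its count of reads, which no comparison above uses. In broad peaks 2.64% (2.55 to 2.73) of hMeDIP positions and 0.338% (0.249 to 0.447) of input positions carried 2 or more reads. It is listed because the hMeDIP value lies above that of the input, which serves as control. In short peaks the shares were 2.002% (1.987 to 2.018) in hMeDIP and 0.275% (0.260 to 0.292) in input, and outside peaks 1.05% (1.04 to 1.05) and 0.339% (0.334 to 0.343). In hMeDIP, density of positions differs in the same order, while the input share was as high outside peaks as in broad ones. The part of density in these shares was not tested.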

How the results depend on the processing

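Of 34 alternative values, 13 stayed within the counting interval of the main value, 19 moved further and 2 changed direction. Numbers of broad peaks have no such interval and were judged by their fold change. The number of broad peaks was 4325 with peaks within 1000 bp merged, 1336 at a threshold of 4 kb and 136 at 7 kb. The pooled ratio was 8.32 when scaled to fragments outside peaks, 6.14 at 4 kb, 6.59 at 7 kb, and 6.43 both without peaks in 10 kb bins of extreme input and without the chromosome 1 pair, an alternative chosen after seeing the data. The last 2 leave out the same 2 broad peaks and are not separate checks. Broad over short was 1.18 at 4 kb, 1.25 at 7 kb, 1.226 without the extreme bins, 1.228 without the pair and 1.11 against short peaks of the same 100 kb bins. The share with another broad peak nearby was 47.1% within 50 kb, 63.5% within 200 kb, 67.6% at 4 kb and 27.9% at 7 kb. The flank quotient turned to 0.843 (0.680 to 1.05) at 7 kb and to 0.977 against the same bins, both with intervals that span 1, and was 1.11 at 5000 to 10000 bp. Centre over edge was 1.34 with the middle and outermost 10%. The causes were not tested. Counting reads or using 150 bp stretches left the pooled ratio, its quotient, the flank quotient and the centre over edge within their intervals. No paired analysis was possible because each group is 1 library. The input depth, a median of 23 fragments per broad peak, limits the ratio of single peaks.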
